A study of Mus musculus with 24 samples.

Results

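Liver RNA of mice after Roux-en-Y gastric bypass (RYGB, 8 libraries) was set against that of mice after sham surgery (Sham, 8 libraries), over all genes and with weight on changes other than the largest folds. Libraries were chosen by their labels alone, as the samples titled RYGB or Sham, and make up 16 of the 24 libraries of the series. RYGB is an operation for obesity in which the stomach is reduced to a small pouch joined to the small intestine beyond the duodenum. Food then passes by most of the stomach and the duodenum. Liver was taken 20 weeks after surgery, and the series title calls the mice obese. The other 8 libraries came from calorie-restricted mice whose weight was matched to that of the RYGB mice (WM), and serve here in the estimate of spread and in a test of the named genes. The sources used here do not give strain, sex, age, diet or the hour of collection, and do not state that each library is a separate animal, so p-values measure the spread between these samples. Libraries are named by the number in their label.

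Hepatocytes, the main cells of the liver, make most proteins of blood plasma and carry out much of the body's metabolism of fat, sugar, amino acids, steroids and drugs. Their messenger RNA is dominated by a short list of transcripts for secreted proteins and enzymes, and this output responds to food supply, hormones and stored fat. In obesity hepatocytes store triglyceride, which can bring stress and damage signals, invading immune cells and scar matrix.

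The libraries held 13659647 to 17391377 counts in Sham and 14002193 to 19958019 in RYGB. Levels are in CPM, counts brought to 1 common library size after scaling by TMM, a method that sets library sizes so that most genes do not change. Each group is described by its lowest and highest library and its median. Of 14995 genes in the table, 13121 had enough counts to be tested with the quasi-likelihood test of edgeR, and a gene is called higher or lower where its Benjamini-Hochberg adjusted p, taken over the whole set of tested genes, was under 0.05. Summed levels of 20 hepatocyte markers were 55586 to 124089 CPM in Sham and 122203 to 196547 CPM in RYGB (two-sided exact permutation test over libraries, adjusted p = 0.00124 over 16 library measures). Erythroid markers, which report blood cells, summed to 766 to 2433 and 2985 to 5767 CPM (exact permutation, adjusted p = 0.00124), neutrophil markers to 17.6 to 99.5 and 9.09 to 28.8 CPM (exact permutation, adjusted p = 0.00332) and cholangiocyte markers to 61.2 to 114 and 43.6 to 66.5 CPM (exact permutation, adjusted p = 0.00199). The lower cholangiocyte sum was not shared by the list: of 11 tested members 0 were called higher and only Spp1 lower, with a median log2 fold change of 0.28. The neutrophil sum held 7 genes, of which 4 were tested and 1 was called lower, with a median of -0.14. Of 9 tested erythroid markers 3 were called higher and 0 lower, with a median of 1.03. In bulk liver a change in the number of cells of a type and a change in RNA per cell cannot be told apart. Markers of pancreatic acinar cells stood at 1620.1 CPM in Sham 17, 3596 in RYGB 18 and 3718 in RYGB 19, against 11.9 to 188 CPM in the other 21 libraries. Counts are given without these 3 libraries where that moves them by over 1.5 times, and also by library totals or after a GC and length correction where that turns or ends the balance of rises and falls.

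Gastric bypass went with many changes of moderate size. Of the 13121 tested genes, 1666 were called higher after RYGB (12.7%) and 1443 lower (11%), together 23.7%. The median change of the genes called higher was a log2 fold change of 0.91, or 1.88-fold, and that of the genes called lower 0.95, or 1.93-fold in the downward direction. A change of less than 2-fold was seen in 954 of the genes called higher (57.3%) and in 772 of those called lower (53.5%), and only 119 and 158 passed 4-fold. All 8 RYGB libraries lay above all 8 Sham libraries for 431 genes (3.28%) and below them for 276 (2.1%), together 5.39%. Between pairs of libraries the root mean square difference of log2 CPM had a median of 0.81 within Sham, 0.92 within RYGB and 1.09 between the groups.

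**Figure D1:**
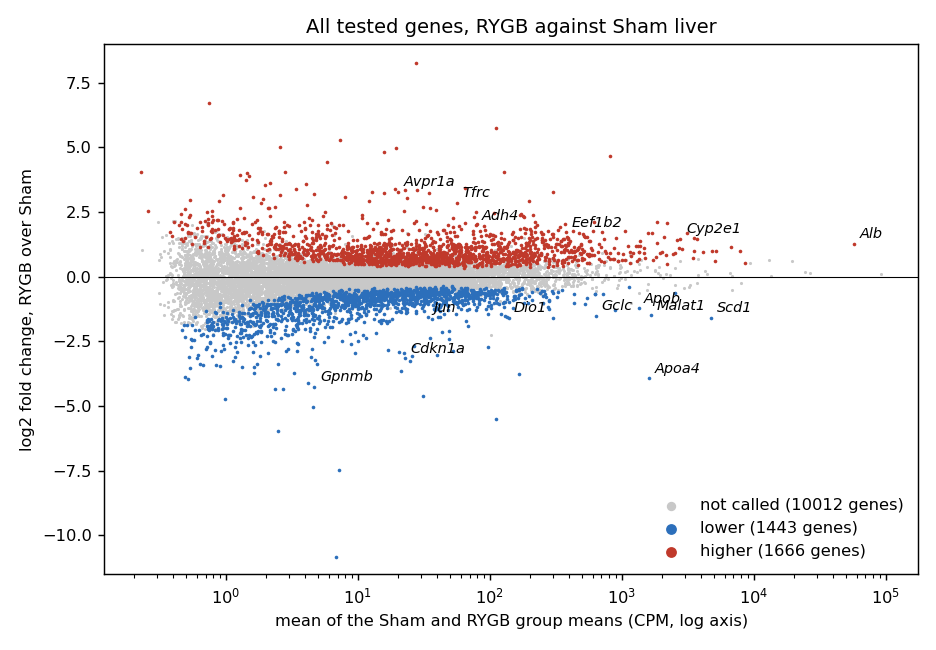
Log2 fold change of RYGB over Sham (vertical axis) against the mean of both group means in CPM (horizontal log axis) for 13121 tested genes, each a point, coloured by call. Genes called higher (1666) reach to the right end of the abundance range, where few of the 1443 genes called lower are found, and labels mark genes described in the text.

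The direction of change depended on abundance. Among the 206 genes with a mean of at least 500 CPM, 97 rose and 13 fell, with a median log2 fold change of 0.54. Among 1033 genes at 100 to 500 CPM, 330 rose and 88 fell. The balance turned below: of 3406 genes at 1 to 5 CPM, 219 rose and 384 fell. The genes called higher held 23.9% ± 3.46 (SD, n = 8) of all counts in Sham and 39.4% ± 3.07 (SD, n = 8) in RYGB, while those called lower went from 9.02% ± 1.63 (SD, n = 8) to 3.62% ± 0.578 (SD, n = 8). These shares describe genes chosen by their change. The split of calls also depended on the scaling: when libraries were scaled by their totals in place of TMM, the median log2 fold change of all tested genes moved from -0.01 to -0.36, and 754 genes were called higher against 3534 lower (17.6% of calls higher, 53.6% with TMM). Medians of gene groups below are therefore set against -0.01, and the value by library totals is added wherever it has the other sign.

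Transcript length went with direction as well. Genes called higher had a median transcript length of 1940 bp, genes called lower one of 4565.5 bp, and all tested genes one of 3229 bp. In the shortest quintile of genes by length 29.0% were called higher and 4.54% lower, and in the longest 2.90% and 22.3%. The slope of log2 level on log2 length lay between 0.0735 and 0.223 in Sham and between -0.128 and 0.0203 in RYGB, with no overlap (two-sided exact permutation, p = 0.000155, the smallest it can give, adjusted p = 0.00124). After each library was corrected for smooth trends on GC content and length, 1649 genes were called higher and 1261 lower, of which 1216 and 964 were among the calls without the correction. The part of length or RNA quality in single results was not tested beyond this correction.

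**Figure D2:**
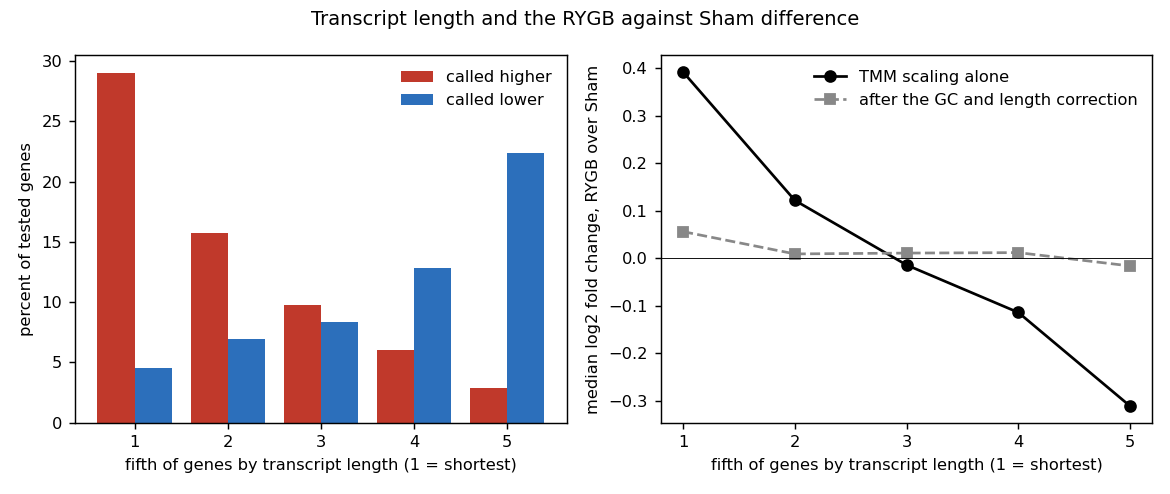
Percent of tested genes called higher or lower (left, bars) and median log2 fold change (right, points) in 5 equal bins of transcript length, from shortest (1) to longest (5). The share called higher falls from 29.0% to 2.90% along the bins, and the GC and length correction (dashed) takes the median of the shortest bin from 0.39 to 0.06.

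The genes called higher with the largest difference in mean CPM included several of secreted plasma proteins. They were chosen by that rise, and genes of plasma proteins were not counted as a set. Albumin (Alb), the main carrier protein of plasma, lay at 21513 to 41842 CPM in Sham (median 33582) and 51789 to 100982 CPM in RYGB (median 85769) (log2 fold change 1.28, SE 0.19, adjusted p = 1.6e-05). No RYGB library came down to the highest Sham library, and the share of all counts on Alb alone went from 3.92% ± 0.821 (SD, n = 8) to 7.53% ± 1.56 (SD, n = 8). Apoc1, an exchangeable apolipoprotein, measured 2048 to 4435 CPM in Sham (median 3482) and 5373 to 8956 CPM in RYGB (median 6605) (log2 fold change 0.98, SE 0.17, adjusted p = 0.000145). Ahsg encodes fetuin-A, a plasma inhibitor of mineral deposition, and ran at 1538 to 4349.6 CPM in Sham (median 3264) and 4852 to 8986 CPM in RYGB (median 5814) (log2 fold change 1.01, SE 0.22, adjusted p = 0.00153). After the GC and length correction the log2 fold change of Apoc1 was 0.38, and it was still called. For both genes, too, the groups did not overlap, and the lowest Sham value of Alb, Apoc1 and Ahsg was that of the same library, Sham 17, 1 of the 3 with acinar transcripts. Fgb, the beta chain of fibrinogen, had 2449 to 6359 CPM in Sham (median 4198) and 6239 to 12559.6 CPM in RYGB (median 9802) (log2 fold change 1.14, SE 0.21, adjusted p = 0.000205). Its partner chains Fga (1.10) and Fgg (0.95) also rose on the log2 scale.

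Among the hepatocyte markers as a list, 12 of 20 tested members rose and 1 fell, with a median log2 fold change of 0.78. The member that fell was Apob, the structural protein of very low density lipoprotein particles and a very long transcript, at 1128 to 2715 CPM in Sham (median 1799) and 469 to 1249 CPM in RYGB (median 777) (log2 fold change -1.23, SE 0.22, adjusted p = 0.000222). Apoa1, the main protein of high density lipoprotein, measured 1695 to 8493 CPM in Sham (median 4997) and 6504 to 17695 CPM in RYGB (median 9284) (log2 fold change 0.99, SE 0.33, adjusted p = 0.0308). Its call was lost after the GC and length correction, by library totals and without RYGB 18, RYGB 29, Sham 2, Sham 6, Sham 14 or Sham 17, with log2 fold changes of 0.63 to 0.95, and without the 3 acinar libraries (0.68). Apoa4, an apolipoprotein of newly made lipid particles, moved the other way, from 1603 to 4796 CPM in Sham (median 2975) to 94.3 to 345 CPM in RYGB (median 201; log2 fold change -3.92, SE 0.28, adjusted p = 1.23e-09). The apolipoproteins thus did not share a direction.

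Serine protease inhibitors of the serpin family, most of them plasma proteins made in liver, were counted as a family: 13 of 29 tested members rose and 2 fell (without the 3 acinar libraries 9 and 1), with a median of 0.69. Their summed level was 7319 to 21270.1 CPM (median 13429) in Sham and 20329 to 39814 CPM (median 28539.8) in RYGB. Serpina3k, a plasma serpin, lay at 1324 to 3857 CPM in Sham (median 1792) and 3185 to 7350.4 CPM in RYGB (median 5544) (log2 fold change 1.46, SE 0.23, adjusted p = 4.02e-05). Serpina1c, a mouse copy of alpha-1 antitrypsin, had 569.9 to 3951 CPM in Sham (median 1749.9) and 2916 to 8205 CPM in RYGB (median 4667) (log2 fold change 1.52, SE 0.33, adjusted p = 0.00158). Antithrombin (Serpinc1, 0.66), heparin cofactor 2 (Serpind1, 0.72) and the C1 inhibitor (Serping1, 0.74) rose by less on the log2 scale. Serpina7 (-0.81), which encodes a thyroxine carrier, fell. Mup3, a major urinary protein that binds pheromones, lay at 718 to 2999 CPM in Sham (median 1327) and 2434 to 7958 CPM in RYGB (median 4406) (log2 fold change 1.69, SE 0.26, adjusted p = 2.79e-05). The Serpina1 and Mup genes have near-identical copies, among which counts cannot be assigned with certainty.

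Several motifs were counted in the promoters of the called genes. They were the D-box, E-box, HNF4, STAT, sterol, interferon, cAMP and AP-1 sites and a nuclear receptor repeat. A RefSeq promoter of the GRCm38.p6 build, from 250 bases before to 50 bases after the transcript start, was matched for 1211 genes called higher, 1026 called lower and 9716 tested genes, and the first listed start was taken for each symbol. The D-box, an element of liver and clock genes named after a site of the albumin promoter, was searched as TTATGTAA on both strands. It was found in 12 of the promoters of genes called higher (0.991%), in 2 of those called lower (0.195%) and in 0.525% of all. The D-box was 1 of several motifs counted, and no motif was tested for a difference in share. A match describes letters in this window, not a bound site. Alb, the carboxylesterases Ces1c and Ces1b, and Sec61b of the ER protein channel are among the called genes with a match. For the first 3, the 250 bases before the start are shown because all 3 genes rose with no overlap between the groups, and capitals mark the D-box matches (Alb at chr5:90460620-90460869, plus strand, with 2 matches, Ces1c at chr8:93131284-93131533, minus strand, and Ces1b at chr8:93079941-93080190, minus strand).
Alb: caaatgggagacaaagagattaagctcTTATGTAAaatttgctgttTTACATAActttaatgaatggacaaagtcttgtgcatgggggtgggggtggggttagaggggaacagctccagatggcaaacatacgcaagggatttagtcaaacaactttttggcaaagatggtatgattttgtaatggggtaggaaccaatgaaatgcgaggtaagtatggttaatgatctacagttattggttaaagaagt
Ces1c: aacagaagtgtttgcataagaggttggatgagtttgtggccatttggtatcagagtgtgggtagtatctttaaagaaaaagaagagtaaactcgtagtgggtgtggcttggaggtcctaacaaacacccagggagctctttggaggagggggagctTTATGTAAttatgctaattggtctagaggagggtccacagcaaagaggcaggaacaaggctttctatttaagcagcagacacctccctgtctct
Ces1b: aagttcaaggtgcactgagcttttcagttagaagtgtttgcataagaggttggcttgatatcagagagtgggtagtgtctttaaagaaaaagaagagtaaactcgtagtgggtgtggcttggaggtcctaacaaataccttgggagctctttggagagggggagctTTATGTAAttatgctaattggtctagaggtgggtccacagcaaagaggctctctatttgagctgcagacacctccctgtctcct
In Alb the first match began 223 bases before the start, in Ces1c the match began 94 bases and in Ces1b 84 bases before it. Only exact matches are marked in Alb, and they are not to be read as the site that named the element. That site can differ from TTATGTAA and was not searched for. Ces1c and Ces1b have similar sequence around the match, and Ces1g of the same family also had one, so these matches are not independent. Genes of the factors known to bind this element were looked up after the match was seen. Dbp and Tef, which activate through it, were not called (log2 fold changes 0.09 and 0.06), Hlf, another activator of the family, was called lower (-0.73, adjusted p = 0.00425), and Nfil3, a repressor, was called higher (1.197, adjusted p = 0.00139). STAT sites were found in 6.85% of promoters of genes called higher, 6.73% of those called lower and 6.93% of all. In the same order the sterol element had 0.991%, 0.682% and 0.545%, and the interferon element 2.64%, 3.41% and 3.21%. The cAMP element had 2.23%, 3.12% and 3.20%, and AP-1 4.29%, 4.39% and 3.65%. The nuclear receptor repeat had 0%, 0% and 0.0412%. For the sites CACGTG (E-box) and CAAAGTCCA (HNF4), the shares of promoters with a match were 9.91% and 0.908% among genes called higher, 8.87% and 0.292% among genes called lower, and 10.4% and 0.525% among all.

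The 10 rises of moderate size with the smallest p included 2 P450 genes and 2 carboxylesterase genes. They were taken among genes with a change under 4-fold and a mean of at least 10 CPM in either group. In all 10 the groups did not overlap, where 3.28% of all tested genes rose in this way. A choice by smallest p favours such genes. Adh4, an alcohol dehydrogenase that also oxidises retinol, was measured at 22.2 to 41.5 CPM in Sham (median 30.4) and 92.7 to 194 CPM in RYGB (median 113) (log2 fold change 2.00, SE 0.17, adjusted p = 3.7e-09). Rdh16f2, a retinol dehydrogenase family member, lay at 23.2 to 61.4 CPM in Sham (median 31.9) and 114 to 186 CPM in RYGB (median 138) (log2 fold change 1.96, SE 0.18, adjusted p = 1.43e-08). Cyp2e1, the cytochrome P450 that oxidises ethanol, acetone and paracetamol, stood at 1111 to 2026 CPM in Sham (median 1456) and 3273 to 4832 CPM in RYGB (median 4154) (log2 fold change 1.48, SE 0.15, adjusted p = 9.1e-08). Its lowest RYGB library was well above the highest Sham library. Cyp4f14, a P450 that hydroxylates fatty acids and vitamins, had 42.1 to 100.1 CPM in Sham (median 67.8) and 176 to 297 CPM in RYGB (median 234) (log2 fold change 1.72, SE 0.17, adjusted p = 9.1e-08). Carboxylesterase Ces1c, which is secreted into mouse plasma, measured 639 to 1041 CPM in Sham (median 769) and 1949.7 to 3079 CPM in RYGB (median 2704) (log2 fold change 1.69, SE 0.17, adjusted p = 1.22e-07), and its neighbour Ces1b 11.5 to 27.3 CPM in Sham (median 19.2) and 43.0 to 93.9 CPM in RYGB (median 57.0) (log2 fold change 1.74, SE 0.18, adjusted p = 1.89e-07). These genes belong to families with similar sequences, so that reads may have been split among copies. The rest were Nat8f1, an acetyltransferase family member (1.72), Csrp2, a LIM domain protein (1.47), and 2 enzymes of cholesterol synthesis, Pmvk (1.59) and Ebp (1.45).

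The 10 falls of moderate size with the smallest p were chosen by the same rule and included Jun, Tead1 and Tpm1. Jun, a subunit of the AP-1 transcription factor that is induced by stress, lay at 36.1 to 64.7 CPM in Sham (median 49.7) and 9.81 to 28.0 CPM in RYGB (median 16.6) (log2 fold change -1.56, SE 0.18, adjusted p = 7.13e-07). Tead1, the DNA-binding partner of the growth regulators YAP and TAZ, was at 19.4 to 29.8 CPM in Sham (median 26.6) and 4.02 to 12.5 CPM in RYGB (median 8.27) (log2 fold change -1.70, SE 0.21, adjusted p = 2.54e-06). Tropomyosin Tpm1, which lines actin filaments, had 47.5 to 75.5 CPM in Sham (median 61.2) and 26.3 to 34.0 CPM in RYGB (median 30.3) (log2 fold change -1.07, SE 0.14, adjusted p = 2.28e-06). In these 3 genes no RYGB library reached a Sham library. Gclc, the catalytic subunit of the enzyme that limits glutathione synthesis, measured 379.6 to 1348 CPM in Sham (median 979) and 241 to 435 CPM in RYGB (median 323) (log2 fold change -1.51, SE 0.20, adjusted p = 3.59e-06), with some overlap. Dio1, the selenoenzyme that activates thyroxine, was found at 148 to 288 CPM in Sham (median 205) and 46.0 to 96.7 CPM in RYGB (median 66.4) (log2 fold change -1.59, SE 0.20, adjusted p = 2.63e-06), with no overlap. Kdsr, an early enzyme of ceramide synthesis, fell with a log2 fold change of -1.16, Hlcs, which attaches biotin to carboxylases, with -1.80, and Plekha1 and Samd4, which encode a phosphoinositide-binding and an RNA-binding protein, with -1.79 and -1.49. Tmem43 (-1.45) encodes a protein of the nuclear envelope.

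By amount of RNA, the largest falls were those of Scd1 and Apoa4. Scd1, the desaturase that makes monounsaturated fatty acids, lay at 5371 to 9279.9 CPM in Sham (median 7241) and 931 to 3960.0 CPM in RYGB (median 2401) (log2 fold change -1.59, SE 0.31, adjusted p = 0.000532). Cyp3a11, the main drug-oxidising P450 of its family in mouse liver, had 931 to 1569 CPM in Sham (median 1279) and 322 to 761 CPM in RYGB (median 492) (log2 fold change -1.30, SE 0.24, adjusted p = 0.000262). Both fell with no overlap between the groups. Beta-actin (Actb), often used as a reference gene, measured 1969 to 3772 CPM in Sham (median 3307) and 1257 to 2758 CPM in RYGB (median 1937) (log2 fold change -0.63, SE 0.21, adjusted p = 0.0253). The call of Actb was lost without RYGB 15, RYGB 28, Sham 5 or Sham 17 (log2 fold changes -0.59 to -0.56), and also without the 3 acinar libraries (-0.63). The long noncoding RNA Malat1, which stays in the nucleus, lay at 653 to 4873 CPM in Sham (median 2459) and 279.8 to 1835 CPM in RYGB (median 555) (log2 fold change -1.48, SE 0.38, adjusted p = 0.00615), and without the 3 acinar libraries it no longer passed the test (-1.01). Zbtb20, a repressor transcription factor of hepatocytes, fell by 1.05 on the log2 scale, but after the GC and length correction it was at -0.38 and not called.

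Nearly all genes of the cytosolic ribosome rose. Of 78 tested genes of cytosolic ribosomal proteins, 74 rose and 0 fell, where 12.7% and 11% of all tested genes did, with a median log2 fold change of 1.44. The 4 not called were Rpl6, Rpl15, Rpl19 and Rpl6l, at log2 fold changes of 0.01, 0.66, 0.83 and 0.90. Summed over the family, the libraries held 9026 to 16573 CPM (median 10169) in Sham and 20966 to 44051 CPM (median 28968) in RYGB, with no overlap. Single members showed no overlap for 42 of the 78, where RYGB lay wholly above Sham for 3.28% of all tested genes. These messages are short, with a median length of 1054 bp. After the GC and length correction 69 members were still called higher, with a median of 1.10, and by library totals 70, with a median of 1.08. Ribosomal protein genes have many processed pseudogenes, to which an unknown part of their reads can go, and of 177 tested processed pseudogenes of any gene 71 rose and 10 fell.

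Of the initiation and elongation factors, 16 of 53 tested members rose and 5 fell (by library totals 7 and 10), with a median log2 fold change of 0.25 (-0.07 scaled by library totals). Eef1b2, a subunit of the exchange factor of elongation factor 1, lay at 144 to 275 CPM in Sham (median 165) and 383 to 869.8 CPM in RYGB (median 528) (log2 fold change 1.71, SE 0.19, adjusted p = 5.87e-07). Eif3h, a subunit of the initiation factor that binds the small ribosomal subunit, had 46.1 to 75.5 CPM in Sham (median 65.2) and 128 to 274 CPM in RYGB (median 161) (log2 fold change 1.49, SE 0.17, adjusted p = 5.18e-07). The groups did not overlap for either gene. Those that rose included 7 subunits of that factor (Eif3d, Eif3f, Eif3g, Eif3h, Eif3i, Eif3k and Eif3l, 0.51 to 1.49) and the elongation factor Eef2 (1.06). Among those that fell were Eef2k (-0.96), the kinase that inhibits Eef2, and the poly(A)-binding protein gene Pabpc1 (-0.65). Aminoacyl-tRNA synthetases load amino acids onto transfer RNA. Of 23 tested, 3 rose (13.0%, near the 12.7% of all tested genes) and 0 fell (by library totals 1 and 2). The rises were Qars (0.73), Mars (0.80) and Kars (0.49). The median of the 23 was 0.21 (-0.13 scaled by library totals), and Mars was not called by library totals (0.46).

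Secreted proteins enter the endoplasmic reticulum (ER) while they are made. Of the genes for signal recognition, translocation and folding, 13 of 52 tested members rose and 0 fell (by library totals 6 and 7), with a median log2 fold change of 0.30 (-0.05 scaled by library totals). Ssr4, a subunit of the translocon-associated complex, lay at 75.6 to 154 CPM in Sham (median 100.02) and 180.0 to 337 CPM in RYGB (median 229) (log2 fold change 1.22, SE 0.18, adjusted p = 1.37e-05). Spcs1, a subunit of the peptidase that removes signal peptides, had 28.0 to 61.8 CPM in Sham (median 37.1) and 59.7 to 116 CPM in RYGB (median 71.8) (log2 fold change 0.95, SE 0.19, adjusted p = 0.000594). Members with other tasks were Sec61b of the protein channel (0.82), the chaperone Hspa5 (0.81) and Creld2 (1.51) and Sdf2l1 (1.196), which are induced by ER stress. Of genes of the next step, the vesicle coats and transport between ER and Golgi, 2 of 52 tested members rose and 6 fell (without the 3 acinar libraries 1 and 5), with a median of 0.00 (0.05 after the GC and length correction). The Golgi tether Golgb1 lay at 63.9 to 99.2 CPM in Sham (median 94.1) and 44.6 to 58.0 CPM in RYGB (median 48.8) (log2 fold change -0.82, SE 0.13, adjusted p = 3.8e-05), with no overlap. Sec13 of the coat of ER vesicles rose by 0.83 on the log2 scale, but was not called by library totals (0.49). When single libraries were left out, the vesicle genes called higher numbered 1 to 3 (changing by over 1.5 times without RYGB 18, RYGB 19, RYGB 29, Sham 14, Sham 16, Sham 17, Sham 23, Sham 5, Sham 6).

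Most proteins of mitochondria are encoded in the nucleus. Of complex I genes (Nduf), 30 of 46 tested members rose and 1 fell (without the 3 acinar libraries 27 and 0), with a median log2 fold change of 0.74, and of the genes of complexes III to V (Cox, Uqcr and Atp5), 25 of 39 tested members rose and 0 fell, with a median of 0.76. The summed level of the Nduf genes was 3847 to 6028 CPM (median 5080.5) in Sham and 6801 to 10929 CPM (median 8754) in RYGB. That of the Cox, Uqcr and Atp5 genes was 6933 to 12074 CPM (median 9568) and 15004 to 22879 CPM (median 17373). The member that fell, the assembly factor Ndufaf4 (-0.54), was not called without RYGB 11, RYGB 18, RYGB 19, RYGB 29, Sham 14, Sham 17 or Sham 23. Of the proteins of the mitochondrial ribosome, 40 of 76 tested members rose and 0 fell, with a median of 0.61. Of the import channel genes (Tomm and Timm) 8 of 23 tested members rose and 0 fell, with a median of 0.29 (-0.06 scaled by library totals). After the GC and length correction the calls of higher genes numbered 18 for Nduf, 20 for Cox, Uqcr and Atp5 and 32 for the mitochondrial ribosome. By library totals they numbered 17, 16 and 20.

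The proteasome degrades marked proteins. Of its Psm genes 18 of 48 tested members rose and 0 fell, with a median of 0.53, and 12 were called higher after the GC and length correction. Summed levels were 3097 to 4170.0 CPM (median 3720.2) in Sham and 4244 to 5699 CPM (median 4976) in RYGB. Catalytic or ring subunits such as Psma2 (1.14), Psmb4 (0.95) and Psmb6 (0.95) rose, as did the activator subunit Psme2 (1.11) on the log2 scale. Other families cut ubiquitin from proteins or choose targets: of the Usp genes 0 of 43 tested members rose and 9 fell (without the 3 acinar libraries 0 and 5, after the GC and length correction 4 and 4) (median -0.10 (0.05 after the GC and length correction)), and of the Fbx genes 0 of 46 tested members rose and 1 fell (without the 3 acinar libraries 0 and 0, after the GC and length correction 3 and 3) (median 0.02 (-0.30 scaled by library totals)). Without RYGB 11, RYGB 19, RYGB 29 or Sham 2 the Fbx genes called lower numbered 2. Leaving out 1 library at a time, the Usp genes called lower numbered 5 to 9 (changing by over 1.5 times without Sham 17, Sham 6). The only Fbx gene called was Fbxw7 (-0.66), and without RYGB 11, RYGB 19, RYGB 29 or Sham 2 a further one passed.

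**Figure D3:**
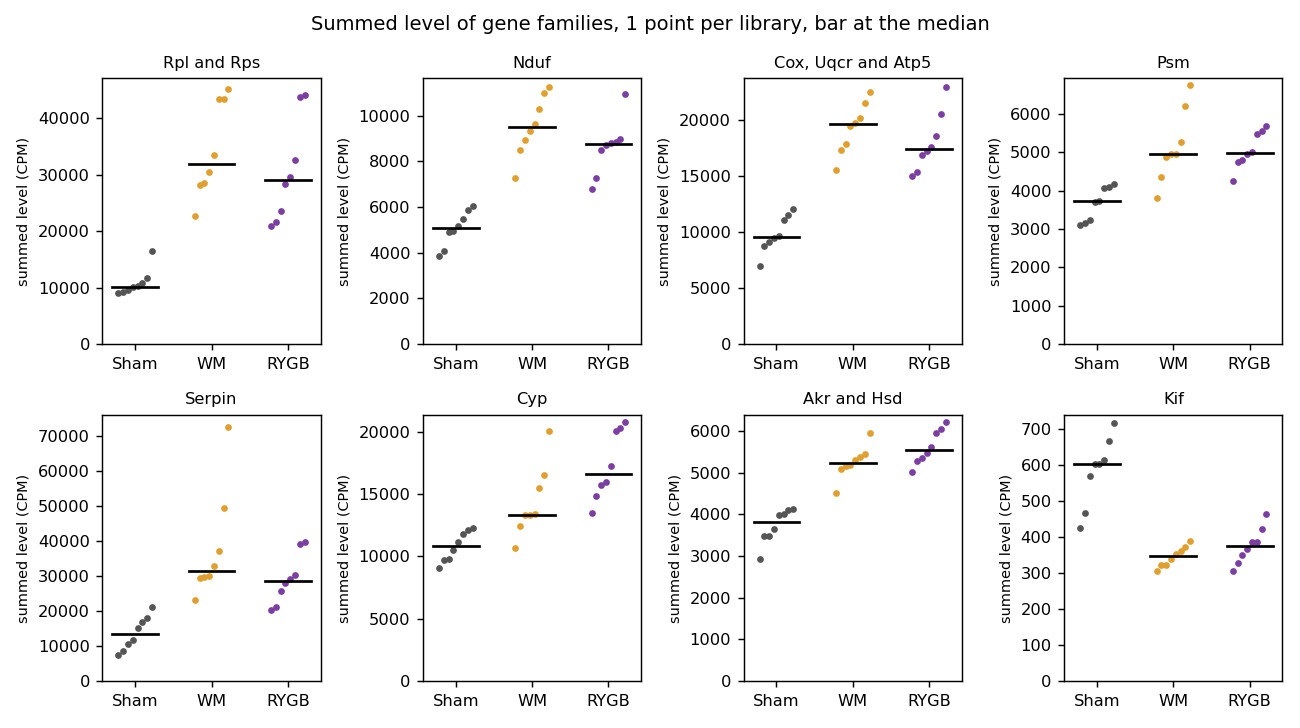
Summed level in CPM (vertical axis, from 0) of 8 gene families in each library of Sham, WM and RYGB, 1 point per library, with a bar at the group median. In 6 panels, those of the ribosomal proteins, Nduf, the Cox, Uqcr and Atp5 genes, Psm, Cyp, and the Akr and Hsd genes, all 8 RYGB libraries sit above all 8 Sham libraries.

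Steroids and drugs are metabolised by several enzyme families. Of the cytochrome P450 genes 27 of 63 tested members rose and 7 fell, with a median log2 fold change of 0.50, and their sum was 9059 to 12253 CPM (median 10799.6) in Sham and 13512 to 20757 CPM (median 16612) in RYGB. Those that fell were all but 1 from the Cyp2a, Cyp2b and Cyp3a subfamilies. Of the aldo-keto reductases and hydroxysteroid dehydrogenases 11 of 25 tested members rose and 0 fell (without the 3 acinar libraries 7 and 0), with a median of 0.58, among them Hsd11b1 (1.14), which makes active glucocorticoid, and Hsd17b2 (1.16), which inactivates sex steroids. Of the Ces carboxylesterases 7 of 11 tested members rose and 0 fell (without the 3 acinar libraries 5 and 1), with a median of 0.51. Ces3b, an esterase of the ER, lay at 54.2 to 88.5 CPM in Sham (median 62.2) and 247 to 523 CPM in RYGB (median 322) (log2 fold change 2.40, SE 0.20, adjusted p = 3.7e-09). Ces2a measured 32.0 to 67.3 CPM in Sham (median 46.6) and 76.6 to 141 CPM in RYGB (median 107) (log2 fold change 1.15, SE 0.19, adjusted p = 6.59e-05). For both genes the groups did not overlap. Of the glutathione transferases 5 of 21 tested members rose and 4 fell (without the 3 acinar libraries 2 and 4, by library totals 2 and 6, after the GC and length correction 4 and 7) (median 0.36), with Gstt2 (1.27) and Gsto1 (1.05) up and Gsta1 (-3.11) and Gstm3 (-2.73) down on the log2 scale. In fits without 1 library, the Gst genes called higher numbered 3 to 6 (changing by over 1.5 times without RYGB 19, RYGB 29).

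Of the enzymes of alcohols, aldehydes and retinoids 14 of 45 tested members rose and 5 fell (without the 3 acinar libraries 7 and 4, by library totals 8 and 8), with a median of 0.34. Adh5, the alcohol dehydrogenase that also removes formaldehyde, lay at 140.0 to 264 CPM in Sham (median 196) and 349 to 468 CPM in RYGB (median 371) (log2 fold change 1.00, SE 0.14, adjusted p = 1.03e-05), with no overlap. Retinol handling was represented by Rdh9 (1.87), Rdh11 (1.25), the retinol carrier Rbp4 (0.95) and the retinoic acid hydroxylase Cyp26b1 (1.55) among the rises. Lrat (-0.95), which stores retinol as an ester in stellate cells, and Aldh3a2 (-0.93), a fatty aldehyde dehydrogenase, fell on the log2 scale.

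Fuels are oxidised in mitochondria and peroxisomes. Of the tricarboxylic acid cycle and pyruvate dehydrogenase genes 9 of 35 tested members rose and 2 fell (by library totals 3 and 6), with a median of 0.33 (-0.03 scaled by library totals). Idh3b, a subunit of isocitrate dehydrogenase, lay at 30.9 to 72.3 CPM in Sham (median 59.4) and 86.8 to 160.3 CPM in RYGB (median 128) (log2 fold change 1.16, SE 0.16, adjusted p = 1.04e-05). Me1, the malic enzyme that makes NADPH for fat synthesis, went down to 34.5 to 76.5 CPM in RYGB (median 52.1) from 104 to 269.7 CPM in Sham (median 126; log2 fold change -1.43, SE 0.20, adjusted p = 1.3e-05), and Pdk4, which blocks the use of pyruvate, fell by 2.31 on the log2 scale. Of peroxisome genes 13 of 59 tested members rose and 4 fell, with a median of 0.22 (-0.14 scaled by library totals). Nudt7, which cleaves coenzyme A in peroxisomes, had 66.5 to 195 CPM in Sham (median 93.3) and 194 to 445 CPM in RYGB (median 297) (log2 fold change 1.54, SE 0.21, adjusted p = 5.57e-06). Pxmp2, a channel of the peroxisome membrane, measured 57.2 to 163 CPM in Sham (median 92.7) and 169.7 to 477 CPM in RYGB (median 388) (log2 fold change 1.74, SE 0.24, adjusted p = 7.27e-06). Hacl1 (1.59) and Phyh (1.19), which break down branched fatty acids, rose, while Hao2 (-2.02), Pex11a (-1.16) and Abcd2 (-1.10) fell.

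Of NAD and nicotinamide genes 7 of 31 tested members rose and 0 fell (without the 3 acinar libraries 4 and 0, by library totals 2 and 3), with a median of 0.24 (-0.10 scaled by library totals). Nnmt, which methylates nicotinamide, lay at 27.0 to 75.9 CPM in Sham (median 35.2) and 106 to 184 CPM in RYGB (median 140.4) (log2 fold change 1.80, SE 0.21, adjusted p = 6.88e-07), with no overlap. Of purine and pyrimidine genes 12 of 51 tested members rose and 8 fell (without the 3 acinar libraries 5 and 5, by library totals 5 and 13), with a median of 0.22 (-0.12 scaled by library totals). Upb1, the last enzyme of pyrimidine breakdown, measured 131 to 216 CPM in Sham (median 177) and 311 to 578 CPM in RYGB (median 489) (log2 fold change 1.47, SE 0.19, adjusted p = 3.3e-06). Tk1, a thymidine kinase of dividing cells, had 4.33 to 10.2 CPM in Sham (median 7.57) and 14.3 to 30.1 CPM in RYGB (median 23.3) (log2 fold change 1.64, SE 0.21, adjusted p = 3.4e-06), and Rrm2, another gene of dividing cells, fell by 0.96 on the log2 scale. With 1 library left out, the purine and pyrimidine genes called lower numbered 5 to 7 (changing by over 1.5 times without RYGB 15, RYGB 22, Sham 16, Sham 23, Sham 3). Of the sugar and glycogen genes 3 of 39 tested members rose and 3 fell (by library totals 2 and 13, after the GC and length correction 4 and 3), with a median of -0.19. Ppp1r3c, which brings a phosphatase to glycogen, lay at 16.5 to 30.1 CPM in Sham (median 23.0) and 38.0 to 111 CPM in RYGB (median 67.3) (log2 fold change 1.68, SE 0.23, adjusted p = 8.64e-06), and Ppp1r3b of the same task rose by 1.15 on the log2 scale. When single libraries were left out, the sugar and glycogen genes called lower numbered 1 to 4 (changing by over 1.5 times without RYGB 15, RYGB 22, Sham 14, Sham 16, Sham 23, Sham 3, Sham 5).

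Lipid lists are read against the 12.7% of all tested genes that rose and the 11% that fell. Of the lipases and esterases of neutral lipid 10 of 35 tested members rose and 5 fell (by library totals 5 and 9), with a median of 0.14 (-0.21 scaled by library totals and -0.06 without the 3 acinar libraries). Pnpla3, a lipid droplet enzyme induced by feeding, fell by 3.47 on the log2 scale, and so did Mgll (-1.02), which splits monoglycerides, while Lipc (0.55), the hepatic lipase, rose. Of sphingolipid genes 6 of 39 tested members rose and 4 fell (by library totals 1 and 9) (median 0.13 (-0.22 scaled by library totals)). Smpd3, a neutral sphingomyelinase, fell by 2.61, Sgms1, a sphingomyelin synthase, by 0.89, and Gba2, a glucosylceramidase, rose by 1.35 on the log2 scale. Of phospholipid genes 4 of 38 tested members rose and 5 fell (without the 3 acinar libraries 2 and 2) (median 0.03 (-0.31 scaled by library totals)). Etnk2, an ethanolamine kinase, had 103 to 155 CPM in Sham (median 120.1) and 165 to 401 CPM in RYGB (median 184) (log2 fold change 0.91, SE 0.21, adjusted p = 0.00225), and Pemt, which makes phosphatidylcholine from phosphatidylethanolamine, rose by 0.83. Pla2g12b (0.72), a secreted phospholipase family member, was not called after the GC and length correction (0.32) or by library totals (0.37). Leaving out 1 library at a time, the phospholipid genes called higher numbered 2 to 6 (changing by over 1.5 times without RYGB 18, Sham 6), and those called lower 1 to 5 (changing by over 1.5 times without RYGB 15, RYGB 18, RYGB 19, RYGB 29, Sham 17, Sham 2, Sham 3, Sham 5, Sham 6). The lipid droplet proteins Cidec (-4.61) and Cidea (-3.24), which stood on the adipocyte marker list, fell, while the other adipocyte markers called, Fabp4 (1.28) and Cfd (1.82), rose. In fits without 1 library, adipocyte markers called higher numbered 0 to 3 (changing by over 1.5 times without RYGB 10, RYGB 28, Sham 14, Sham 16, Sham 23, Sham 5, Sham 6), and without the 3 acinar libraries none did.

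Of the transcription factors that define hepatocytes 6 of 46 tested members rose and 10 fell (13.0% and 21.7%, against 12.7% and 11% of all tested genes), with a median of -0.19. Foxa1 (0.95), Foxa2 (0.65) and Hhex (0.79) rose, while Prox1 (-0.61), Tcf7l2 (-0.64) and Nfib (-0.50) fell. Hnf4a, a master regulator of the hepatocyte, had a log2 fold change of 0.42 and was not called. Nfia, a nuclear factor I member, lay at 196 to 421 CPM in Sham (median 365) and 94.1 to 244 CPM in RYGB (median 159) (log2 fold change -1.03, SE 0.21, adjusted p = 0.000713), with overlap. After the GC and length correction 3 factors were called higher and 9 lower. Of the nuclear receptors and coactivators 6 of 42 tested members rose and 6 fell (by library totals 2 and 17, after the GC and length correction 5 and 7), with a median of -0.24 (0.01 after the GC and length correction). The rises were Nr1h3 (0.78, a sterol sensor), Nr0b2 (1.22, a bile acid-induced repressor), Nr1i2 (0.76) and Nr1i3 (0.56), which sense drugs, Nr2f6 (0.60) and Esrra (0.75). Falls included Ppara (-1.24, the fasting fat sensor), Rora (-0.67), Thrb (-0.73) and Nr6a1 (-0.72). Oestrogen receptor Esr1 was at 15.8 to 47.0 CPM in Sham (median 25.7) and 5.50 to 15.6 CPM in RYGB (median 11.0) (log2 fold change -1.36, SE 0.29, adjusted p = 0.00107).

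Of 49 tested receptors of hormones and growth factors, 9 rose (by library totals 5 rose and 14 fell), and Il6st (-0.90), the shared subunit of interleukin 6 type receptors, alone fell (median 0.07 (-0.27 scaled by library totals and -0.03 without the 3 acinar libraries)). Avpr1a, the vasopressin receptor of hepatocytes, lay at 0.901 to 6.08 CPM in Sham (median 3.84) and 9.09 to 61.5 CPM in RYGB (median 34.2) (log2 fold change 3.29, SE 0.30, adjusted p = 4.36e-08). The groups did not overlap, although Sham 3 and RYGB 19 were both far below the rest of their groups. Egfr (1.29), the receptor of epidermal growth factor, and the asialoglycoprotein receptor genes Asgr1 (0.92) and Asgr2 (1.03) rose too. Tfrc, the transferrin receptor that takes up iron, had 6.43 to 21.1 CPM in Sham (median 13.4) and 8.78 to 187 CPM in RYGB (median 95.3) (log2 fold change 2.87, SE 0.39, adjusted p = 1.31e-05). RYGB 29 lay within the range of Sham and the other 7 RYGB libraries above it. Tfrc is also expressed by red cell precursors and was itself on the erythroid marker list, of which 3 of 9 tested members rose and 0 fell. The list summed higher in RYGB than in Sham. In WM it summed to 1434 to 9972 CPM, with Tfrc at 4.78 to 19.3 CPM. Haemoglobin Hbb-bs lay at 593 to 1781 CPM in Sham (median 1018) and 2046 to 4280.0 CPM in RYGB (median 3014) (log2 fold change 1.52, SE 0.28, adjusted p = 0.000246), and the part of blood cells in the change of Tfrc was not tested. With 1 library left out, the receptors called lower numbered 1 to 2 (changing by over 1.5 times without RYGB 11, RYGB 18, RYGB 22).

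Damage and growth signals were read from their target genes. Of p53 target genes, which respond to DNA damage, 3 of 32 tested members rose and 14 fell, where 11% of all tested genes fell, with a median of -0.52. Cdkn1a, which encodes the cell cycle inhibitor p21, lay at 11.1 to 79.1 CPM in Sham (median 35.9) and 2.15 to 8.45 CPM in RYGB (median 4.40) (log2 fold change -3.15, SE 0.41, adjusted p = 7.27e-06), with no overlap. Trp53inp1, a stress-induced partner of p53, had 64.0 to 84.6 CPM in Sham (median 74.0) and 21.2 to 46.7 CPM in RYGB (median 36.8) (log2 fold change -1.03, SE 0.19, adjusted p = 0.000203). The death receptors Tnfrsf10b (-2.79) and Eda2r (-2.94) and the pro-apoptotic Bax (-0.85) fell on the log2 scale, while Sesn1 (0.70) and Rps27l (0.97) rose. The other rise on the list was the cell cycle inhibitor gene Cdkn2a (2.20), which is not a standard p53 target. The targets Mdm2 and Ccng1 were not called (-0.10 and -0.44). Of target and partner genes of YAP and TEAD, which drive growth of liver cells, 0 of 23 tested members rose and 6 fell (without the 3 acinar libraries 1 and 4), with a median of -0.37. Besides Tead1 these were the targets Ccn1 (-1.77), Crim1 (-0.71), Tgfb2 (-1.15) and Fat1 (-1.09) and Wwtr1, which encodes TAZ, at 60.1 to 117 CPM in Sham (median 78.0) and 31.8 to 65.3 CPM in RYGB (median 41.3) (log2 fold change -0.90, SE 0.17, adjusted p = 0.000226). The targets Ccn2 and Ankrd1 were not called and had log2 fold changes of opposite sign (-1.30 and 1.14).

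Of annexins and S100 proteins, calcium-binding proteins that are high in activated or injured epithelium, 1 of 18 tested members rose and 4 fell, with a median of -0.42. Without Sham 3 the members called higher numbered 2. Anxa2 lay at 44.4 to 138 CPM in Sham (median 83.7) and 9.18 to 25.7 CPM in RYGB (median 15.6) (log2 fold change -2.40, SE 0.29, adjusted p = 1.63e-06). S100a11 had 5.18 to 59.1 CPM in Sham (median 29.8) and 1.40 to 7.96 CPM in RYGB (median 3.87) (log2 fold change -2.81, SE 0.48, adjusted p = 0.00019). Of actin, tubulin and filament genes 5 of 53 tested members rose and 7 fell, with a median of -0.11. Falls among the actin genes included filamin Flna (-0.83), profilin Pfn1 (-1.03) and non-muscle myosin Myh9 (-0.66), while alpha-tubulins Tuba1b (1.337) and Tuba4a (1.67) rose on the log2 scale. When single libraries were left out, the filament genes called lower numbered 3 to 8 (changing by over 1.5 times without RYGB 15, RYGB 28, Sham 16, Sham 17, Sham 3, Sham 5). Of cell junction genes 5 of 39 tested members rose and 2 fell (without the 3 acinar libraries 2 and 2, by library totals 1 and 12) (median 0.14 (-0.21 scaled by library totals)). The share that rose, 12.8%, was near the 12.7% of all tested genes. E-cadherin (Cdh1), which joins epithelial cells, lay at 7.21 to 14.3 CPM in Sham (median 8.48) and 18.3 to 64.0 CPM in RYGB (median 48.5) (log2 fold change 2.16, SE 0.21, adjusted p = 5.69e-08), with no overlap. Cldn14 (0.73), a tight junction claudin, was not called by library totals (0.37) or without the 3 acinar libraries (0.61).

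Of Eph receptors, ephrins, semaphorins, plexins and Robo genes, which position cells by contact, 2 of 40 tested members rose and 12 fell (without the 3 acinar libraries 1 and 10), with a median of -0.17. Robo2 lay at 3.21 to 8.06 CPM in Sham (median 5.56) and 0.723 to 2.95 CPM in RYGB (median 1.56) (log2 fold change -1.71, SE 0.32, adjusted p = 0.000274), and Epha2 (-1.71), Epha3 (-1.84), Efnb2 (-1.72) and Robo1 (-1.87) fell with it on the log2 scale. Sema4c (1.05) and Plxnb1 (0.80) rose, and with 1 library left out the members called higher numbered 0 to 2 (changing by over 1.5 times without RYGB 10, RYGB 15, RYGB 18, RYGB 19, RYGB 22, RYGB 29, Sham 14, Sham 16, Sham 17, Sham 2, Sham 23, Sham 6). Of collagens 1 of 21 tested members rose and 12 fell (without the 3 acinar libraries 0 and 13), with a median of -1.10, and of the Adam and Adamts metalloproteases 1 of 15 tested members rose and 4 fell (without the 3 acinar libraries 0 and 4), with a median of -0.57. Collagens of fibrils (Col1a1, -3.64; Col1a2, -2.68; Col3a1, -2.12) fell by more than the basement membrane collagen Col4a1 (-1.09), a difference that was not tested. Leaving out 1 library at a time, the collagens called higher numbered 0 to 1 (changing by over 1.5 times without RYGB 11, RYGB 19, Sham 14, Sham 16, Sham 23). Of ligands and modulators of TGF beta, activin and BMP, 1 of 40 tested members rose and 4 fell (without the 3 acinar libraries 0 and 5) (median -0.07 (0.03 after the GC and length correction)), with the activin antagonist Fst at 2.65 to 8.11 CPM in Sham (median 4.95) and 0 to 1.41 CPM in RYGB (median 0.555) (log2 fold change -2.87, SE 0.46, adjusted p = 6.16e-05). In fits without 1 library, the members of this list called higher numbered 1 to 2 (changing by over 1.5 times without Sham 2). Spp1, which encodes osteopontin and was the only cholangiocyte marker called of 11 tested, lay at 25.9 to 83.2 CPM in Sham (median 34.6) and 7.01 to 26.7 CPM in RYGB (median 15.6) (log2 fold change -1.40, SE 0.28, adjusted p = 0.000565).

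Immune lists are set beside the 12.7% of all tested genes that rose and the 11% that fell. Of chemokines and their receptors 4 of 31 tested members rose and 5 fell, with a median of 0.14 (-0.25 scaled by library totals). The monocyte attractant Ccl2 (-2.34), its receptor Ccr2 (-1.76), Ccl4 (-1.996) and Cx3cr1 (-1.66) fell, while the B cell attractant Cxcl13 (4.43) rose on the log2 scale. Ccl9 lay at 13.6 to 26.9 CPM in Sham (median 21.6) and 29.8 to 54.6 CPM in RYGB (median 42.2) (log2 fold change 1.02, SE 0.17, adjusted p = 6.09e-05). Of the Toll receptor and NF kappa B list 3 of 51 tested members rose and 6 fell (median -0.16). Il18, an interleukin released by the inflammasome, rose (1.06) together with Casp1 (1.28), the protease that activates it, and Il1rn, which encodes the interleukin 1 receptor antagonist, fell (-1.32). Of antigen receptor genes 5 of 13 tested members rose and 0 fell (without the 3 acinar libraries 1 and 0), with a median of 1.56. The rises were Iglc1 (3.74), Ighg2c (3.16), Ighg2b (2.71) and Igkc (2.65) of antibodies and Trbc2 (1.25) of T cells. With 1 library left out, the antigen receptor genes called higher numbered 2 to 6 (changing by over 1.5 times without RYGB 18).

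Of lysosomal hydrolases and membrane proteins 4 of 65 tested members rose and 7 fell (without the 3 acinar libraries 1 and 6), with a median of -0.03. Gpnmb, a membrane glycoprotein of lipid-loaded macrophages, lay at 2.67 to 38.3 CPM in Sham (median 4.80) and 0.189 to 0.986 CPM in RYGB (median 0.393) (log2 fold change -4.25, SE 0.73, adjusted p = 0.000175). Sham 2 gave the highest value, and without it the log2 fold change was -3.32. Cd63, a tetraspanin of late endosomes, had 13.3 to 38.7 CPM in Sham (median 33.6) and 6.36 to 11.8 CPM in RYGB (median 8.60) (log2 fold change -1.64, SE 0.29, adjusted p = 0.000203), with no overlap. Of the subunits of the vacuolar proton pump 3 of 16 tested members rose and 1 fell (without the 3 acinar libraries 1 and 1, by library totals 1 and 2) (median 0.19 (-0.14 scaled by library totals)), with Atp6v1g1 (1.06) up and Atp6v0a2 (-0.69) down. Of autophagy genes 2 of 50 tested members rose and 3 fell (without the 3 acinar libraries 1 and 1, after the GC and length correction 9 and 2) (median 0.07 (-0.27 scaled by library totals)). Atg4d (0.85), a protease of the pathway, was not called by library totals (0.49), and Tax1bp1 (-0.58), a cargo receptor, was not called without the 3 acinar libraries (-0.51) or once GC and length were corrected for (-0.25). When single libraries were left out, the lysosomal genes called higher numbered 2 to 4 (changing by over 1.5 times without RYGB 19, RYGB 22), and the autophagy genes called higher 1 to 3 (changing by over 1.5 times without RYGB 10, RYGB 28, Sham 16, Sham 17, Sham 5). Of selenoproteins and genes of selenium handling, 4 of 28 tested members rose and 2 fell (by library totals 1 and 5) (median 0.12 (-0.23 scaled by library totals and -0.01 after the GC and length correction)), with glutathione peroxidase Gpx1 at 1575 to 3657 CPM in Sham (median 2241) and 3086 to 6563 CPM in RYGB (median 4705) (log2 fold change 1.01, SE 0.21, adjusted p = 0.000782). Leaving out 1 library at a time, the selenium genes called higher numbered 1 to 5 (changing by over 1.5 times without RYGB 11, RYGB 15, RYGB 29, Sham 14, Sham 16, Sham 5, Sham 6).

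Of chromatin-modifying enzymes 2 of 66 tested members rose and 12 fell (without the 3 acinar libraries 0 and 11), with a median of -0.30. Their median transcript length was 5955 bp, and after the GC and length correction 4 were called higher and 7 lower. Tet3, which oxidises methylcytosine, lay at 9.91 to 27.6 CPM in Sham (median 13.0) and 4.53 to 7.95 CPM in RYGB (median 6.22) (log2 fold change -1.22, SE 0.21, adjusted p = 8.93e-05). Kat6a, a histone acetyltransferase, had 8.41 to 19.0 CPM in Sham (median 16.0) and 4.92 to 11.6 CPM in RYGB (median 6.17) (log2 fold change -1.19, SE 0.20, adjusted p = 0.000112). In fits without 1 library, the chromatin enzymes called higher numbered 1 to 2 (changing by over 1.5 times without RYGB 11, RYGB 18, RYGB 19, RYGB 22, RYGB 29, Sham 14, Sham 16, Sham 17, Sham 2, Sham 23, Sham 6). Of splicing factors 11 of 69 tested members rose and 6 fell (without the 3 acinar libraries 7 and 6, by library totals 4 and 17) (median 0.07 (-0.30 scaled by library totals)), where the rises included the small core proteins Snrpd1 (1.27), Snrpd2 (0.89), Snrpe (1.41) and Snrpg (1.26) and the falls all 3 muscleblind-like regulators, Mbnl1 (-0.66), Mbnl2 (-1.29) and Mbnl3 (-2.27). Of zinc finger genes named Zfp, 11 of 285 tested members rose and 25 fell (without the 3 acinar libraries 7 and 10) (median -0.08 (0.05 after the GC and length correction)), and after the GC and length correction 24 were called higher and 16 lower. Of the Trim ubiquitin ligases 0 of 35 tested members rose and 8 fell (without the 3 acinar libraries 0 and 5) (median -0.39), and of the kinesins, motors on microtubules, 0 of 21 tested members rose and 6 fell (median -0.60). The summed level of the kinesins was 426 to 719 CPM (median 604) in Sham and 306 to 464 CPM (median 377) in RYGB. The solute carriers are a large family of transporters, with shares called near the 12.7% and 11% of all tested genes: 28 of 222 tested members rose and 28 fell (by library totals 11 and 67, after the GC and length correction 34 and 25) (median -0.03 (0.03 after the GC and length correction)).

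**Figure D4:**
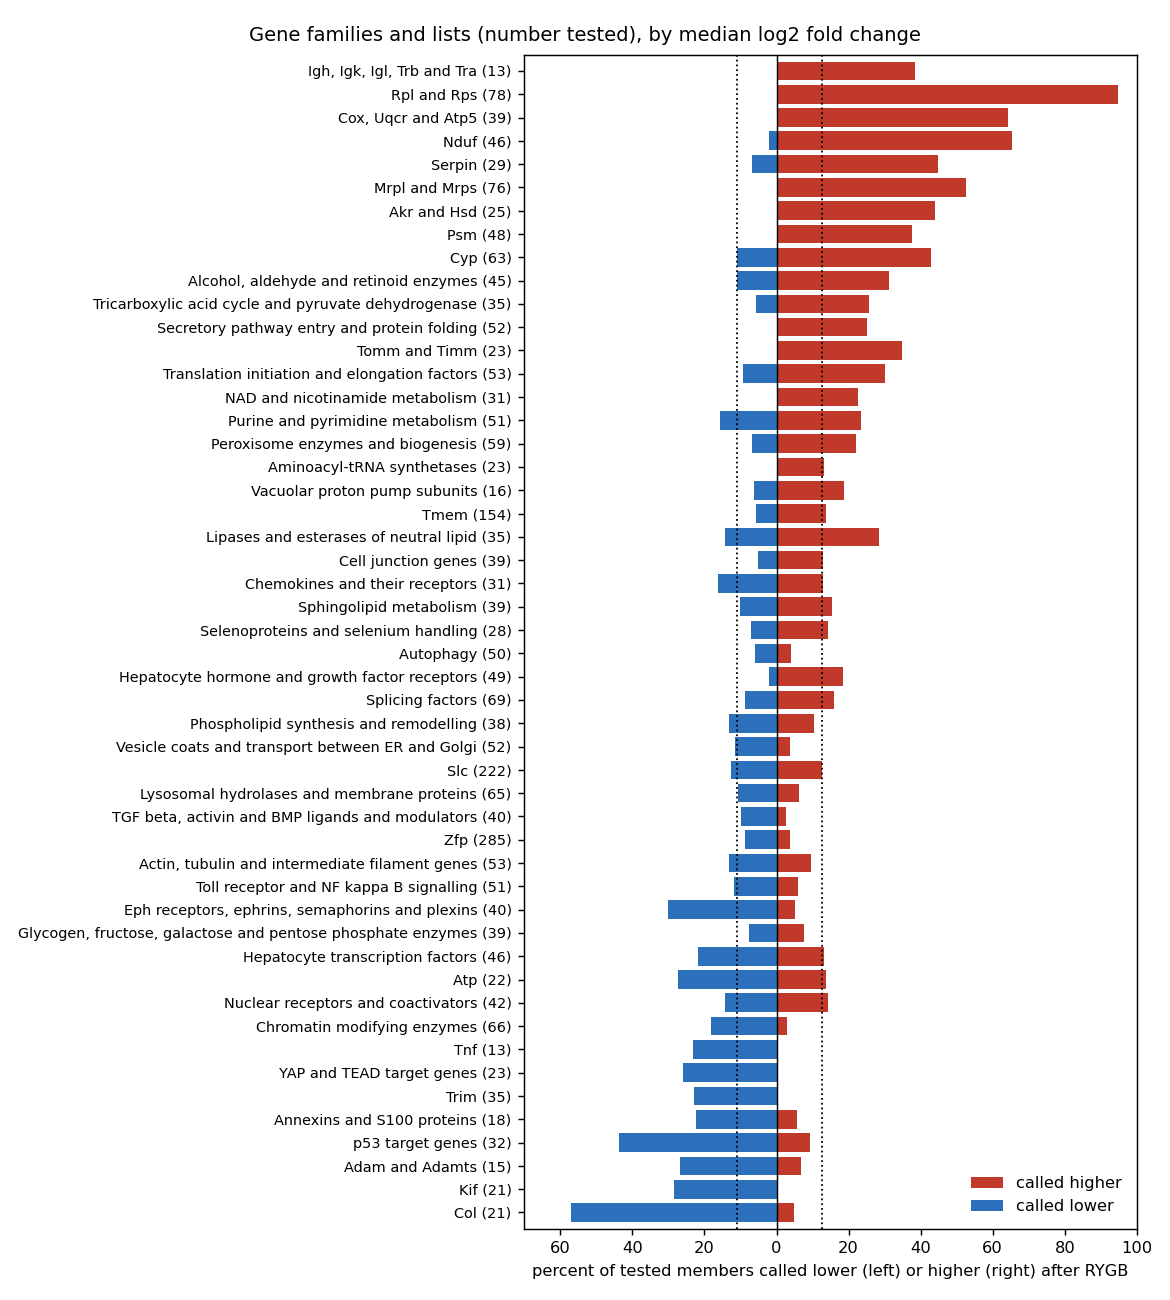
Percent of tested members called higher (right) and called lower (left) for gene families and lists with at least 12 tested members, ordered by median log2 fold change, with the number tested in brackets. Families are shown only where their share called higher or lower was well above that of all tested genes, or where they were very large. Other families and the marker lists are left out. Dotted lines mark the shares of all 13121 tested genes, 12.7% higher and 11% lower, and the ribosomal protein genes (74 of 78 higher) and collagens (12 of 21 lower) lie far beyond them.

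Transcripts were also counted by annotated kind, beside the 12.7% of all tested genes that rose and the 11% that fell. Of 306 tested genes annotated as still to be experimentally checked (TEC), 0 rose and 93 fell, and of 53 sense intronic transcripts 0 rose and 13 fell. Small nuclear RNA genes went the other way, with 15 of 26 higher and 1 lower. Of 11820 protein-coding genes 1470 rose and 1255 fell. The part of unspliced or degraded RNA in these counts was not tested.

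For most genes that were not called, the data did not show a lack of change. The 95% interval of the log2 fold change lay within 0.3 of no difference for 22 genes (0.168%), which had a median level of 62.9 CPM. The most abundant of them was Ldha, a lactate dehydrogenase subunit, at 434 to 591 CPM in Sham (median 510.2) and 408 to 646 CPM in RYGB (median 488) (interval -0.28 to 0.25). Next came Serbp1, an RNA-binding protein (interval -0.27 to 0.23), for which the bound rested on the scaling: the log2 fold change was 0.64 after the GC and length correction and -0.36 by library totals, and both were called. The carnitine carrier Slc25a20 (interval -0.22 to 0.26), the RNA-binding protein Hnrnpab (interval -0.28 to 0.26), the vesicle GTPase Arf1 (interval -0.24 to 0.24), the survival factor Mcl1 (interval -0.27 to 0.24) and the phosphatase subunit Ppp2ca (interval -0.23 to 0.24) were bounded likewise. These intervals hold for TMM scaling.

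Of the 102 genes named by the rule, 7 also differed between RYGB and the weight-matched WM group in the same fit, where 1.49% of all tested genes did. Both tests use the RYGB libraries. Tfrc lay at 4.78 to 19.3 CPM in WM and was higher in RYGB (log2 fold change 3.19, SE 0.39, adjusted p = 5.19e-05), although RYGB 29 was within the range of WM. Cdh1 lay at 12.4 to 25.3 CPM in WM (log2 fold change 1.30, SE 0.21, adjusted p = 0.000577), and Acmsd, an enzyme that diverts tryptophan from NAD synthesis, at 3.60 to 14.9 CPM (log2 fold change 1.56, SE 0.24, adjusted p = 0.00042). In RYGB Acmsd had 14.3 to 34.8 CPM, and in Sham 4.27 to 9.94 CPM, so that RYGB was higher than both other groups. Cyp3a11 lay at 47.7 to 293 CPM in WM, below RYGB (log2 fold change 1.71, SE 0.24, adjusted p = 0.000131), and Cidea too was higher in RYGB than in WM (log2 fold change 2.31, SE 0.57, adjusted p = 0.0301). Lower in RYGB than in WM were Dio1 (log2 fold change -1.09, SE 0.20, adjusted p = 0.00281) and Id1, an inhibitor of differentiation induced by BMP signals (log2 fold change -2.29, SE 0.28, adjusted p = 2.87e-05). Id1 stood at 4.48 to 26.4 CPM in Sham (median 10.8) and 3.39 to 6.85 CPM in RYGB (median 4.61), and at 15.3 to 39.5 CPM in WM. For the other 95 named genes the difference between RYGB and WM did not pass the test, which does not show that both groups were alike.

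**Figure D5:**
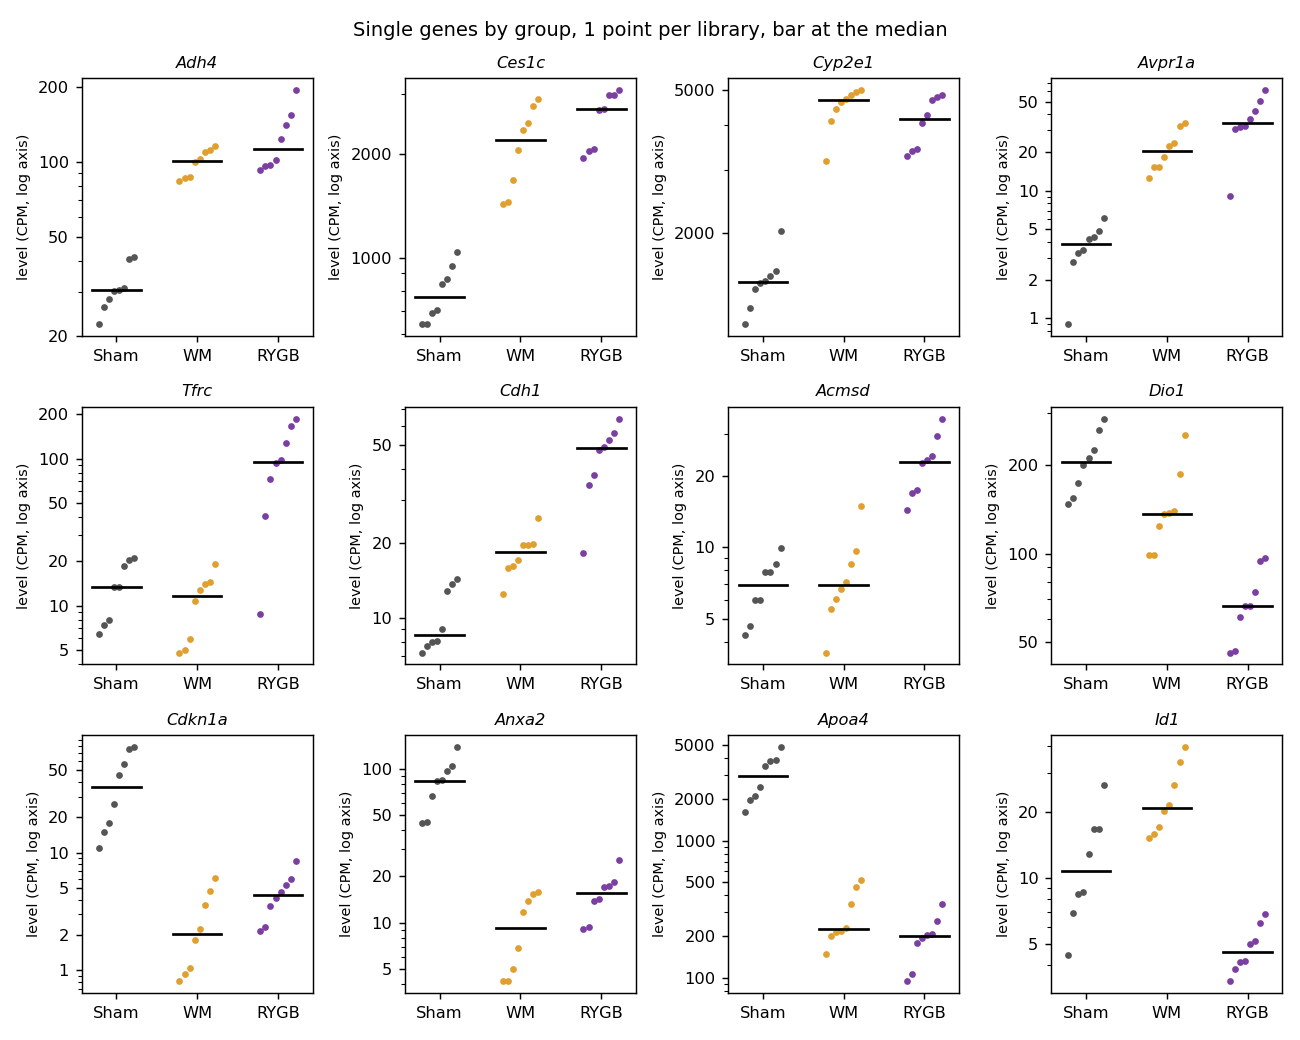
Levels of 12 genes in CPM (vertical log axes) in each library of Sham, WM and RYGB, 1 point per library, with a bar at the group median. Tfrc, Cdh1, Acmsd, Dio1 and Id1 pass the test between RYGB and WM as well as that between RYGB and Sham, and Adh4, Ces1c, Cyp2e1, Avpr1a, Cdkn1a, Anxa2 and Apoa4 only the latter.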

How the data were processed

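RNA from frozen mouse liver was made into QuantSeq libraries, which read the 3′ ends of messenger RNA for 50 bp in the forward direction, per the labels' protocols. The authors deposited raw whole-number read counts, by Ensembl gene, for 24 libraries. A second deposited table holds the same counts divided by 1 size factor per library, a normalized signal, and was used in 1 alternative. The submitters' processing notes name R 4.1.2 and DESeq2 1.34. The sources used here do not give the aligner, genome build, annotation or strand setting, so that overlapping and antisense genes may share reads.

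Gene names, lengths and biotypes came from GENCODE M21 and promoters from RefSeq (GRCm38.p6). Counts were fitted in R 4.3.3 with edgeR 4.0.16: filterByExpr, TMM scaling, and 1 quasi-likelihood model over the 24 libraries with no covariate. P-values were adjusted by Benjamini-Hochberg over 13121 genes, and standard errors are Wald values from the fit. Library measures were compared by exact permutation over 12870 splits. On simulated data for RYGB and Sham (12834 genes) with 200 genes changed, edgeR recovered 8.96% of 1.5-fold, 58.2% of 2-fold and 93.9% of 4-fold changes with 1.83% false calls, and DESeq2 made 11.9% false calls.

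The comparison, the 41 gene lists, the 41 families (by symbol) and the rule for named genes were chosen with earlier results of these data known. The rule took 10 higher and 10 lower genes of smallest p with a log2 fold change under 2 and a mean of at least 10 CPM, 8 higher and 8 lower genes with the largest CPM difference, 2 called genes of smallest p per list, and 8 abundant genes with a 95% interval inside 0.3. No predicted gene was taken, and a few of the genes chosen are not reported here. Genes named as members of a list, and Dbp, Tef, Hlf, Nfil3 and Hnf4a, were added after their values were seen. Alternatives were DESeq2 1.42.0, limma 3.58.1 (voom with quality weights, and trend on log2 of the normalized values plus 1), RLE and library-total scaling, no filter or 1 CPM in 8 libraries, the compared groups alone, a correction for GC and length (mgcv 1.9.3), a minimum fold, each library left out, and the 3 acinar libraries left out.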

Additional observations from a re-analysis of the deposited data

Results flagged for a closer look

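In 17 of 204 groups of 8 libraries (8.33%), 1 library lay so far from its group that its gap to the nearest other library, as a part of the range of the group, exceeded Dixon's critical value for 8 values. Chance gives this for about 1 in 20 groups. The groups are the Sham and the RYGB values of the 102 named genes. Sham 2 stood apart for Gpnmb at 38.3 CPM (the others 2.67 to 7.14), Atp6v0a2 at 24.2 CPM (the others 30.2 to 34.8), Eef1b2 at 275 CPM (the others 144 to 180.4) and Kat6a at 8.41 CPM (the others 14.7 to 19.1). Sham 17, a library with acinar transcripts, did so for Alb at 21510 CPM (the others 30680 to 41840), Apoc1 at 2048 CPM (the others 3116 to 4435), Ahsg at 1538 CPM (the others 2956 to 4350) and Ccl27a at 2.64 CPM (the others 5.04 to 8.11). Sham 14 was the one for Serpina3k at 3857 CPM (the others 1324 to 2079), Me1 at 269.7 CPM (the others 104 to 143) and Atg4d at 10.3 CPM (the others 14.5 to 17.5). Sham 3 was apart for Tead1 at 19.4 CPM (the others 24.5 to 29.8) and Avpr1a at 0.901 CPM (the others 2.78 to 6.08). RYGB 19, also with acinar transcripts, was the lowest of RYGB for Esr1 at 5.50 CPM (the others 9.68 to 15.6) and Avpr1a at 9.09 CPM (the others 30.2 to 61.5). Sham 6 was apart for Snrpg at 3.26 CPM (the others 7.02 to 11.0). Sham 23 was apart for Arf1 at 90.8 CPM (the others 101 to 109.9). The values of Avpr1a, Esr1 and Tead1 in Sham 3 and RYGB 19 lie on the low side, and of the called genes among these, none lost its call when the library in question was left out. What sets these libraries apart was not tested.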

How the results depend on the processing

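The labels number the libraries without repeats across groups. No paired analysis was possible because RYGB and Sham share no replicate number. With TMM, 1666 genes were called higher and 1443 lower. Scaled by library totals, 754 were called higher and 3534 lower, and 122 and 663 genes had no overlap between the groups in that scaling (431 and 276 with TMM). By construction, library totals count the larger share of the abundant genes in RYGB against all other genes. Limma-voom called 2420 genes higher and 2598 lower, and a minimum absolute log2 fold change of 1 left 712 and 671. The other settings kept both counts within 1.5 times: RLE scaling gave 1645 and 1491, DESeq2 1834 and 1836, limma-trend 1663 and 1611, the GC and length correction 1649 and 1261, the compared groups alone 1838 and 1694, a test against a 1.2-fold change 1222 and 995, and the fit without the 3 acinar libraries 1305 and 1021. With 1 library left out, the calls ranged from 1450 to 1760 higher and from 1129 (without Sham 17) to 1484 lower, and the genes without overlap from 441 to 571 and from 282 to 410. The genes bounded near no difference were 22, but 0 with bounds of 0.2 and 109 with a 90% interval. Of the 102 named genes, 10 lost their call under at least 1 setting and 0 reversed. In simulated data with 200 genes changed, far fewer than were called here, edgeR called 8.96% of 1.5-fold changes and 58.2% of 2-fold changes. The adjusted p threshold is harder to pass when fewer genes change, so these rates may not hold for these data. The median standard error was 0.62 below 1 CPM and 0.21 above 500 CPM.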
